A study of Mus musculus with 24 samples.

Results

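The Cyp2a family of mouse liver is described here through its 4 named protein-coding genes in the table, Cyp2a4, Cyp2a5, Cyp2a12 and Cyp2a22, out of 34945 named genes. They were selected by symbol after their levels on the regular diet were known: Cyp2a4, Cyp2a5 and Cyp2a22 differed there between wild-type and knockout liver, so the regular-diet genotype contrasts are given as a description without a test. No threshold was applied. All 4 members passed the filter used for testing, a mean of at least 1 TPM (a length-scaled share of all transcripts) over the 24 libraries, which 10551 genes passed. Cyp2a22 passed only through LFKO, where it is high: its mean was 3.83 TPM over all libraries and 0.746 TPM over the 18 libraries not labelled LFKO. Cyp2a4 passed only through the knockout libraries, since its means in RD and HFD WT were 0.172 and 0.0957 TPM. The only other row with a Cyp2a symbol, the pseudogene Cyp2a21-ps, lay between 0 and 0.263 TPM in every library.

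Bulk mRNA of whole liver was sequenced from mice fasted for 4 h after 3 weeks of regular feed (RD) or fat-rich feed (HFD, high-fat diet), with 3 libraries in each of 8 groups. On each diet, WT mice were labelled FoxO1lox/lox; PPARαlox/lox, LFKO mice FoxO1-/-, LPKO mice PPARα-/- and LFPKO mice FoxO1-/-; PPARα-/-. The knockouts were made by crossing the floxed alleles with Albumin-cre, a transgene whose promoter is active in hepatocytes and leaves most other liver cells unrecombined. Age, sex, strain background, litter relations and whether the WT mice carried Cre are not stated in the labels, and neither is whether every library came from its own animal, so the p-values reflect library-to-library spread, which may be technical.

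Foxo1 transcript was at most 0.484 TPM in all 12 libraries labelled LFKO or LFPKO and at least 4.06 TPM in the other 12. Ppara transcript stood at 57.5 to 87.3 TPM in libraries labelled LPKO or LFPKO and at 37.1 to 68.8 TPM in the others, so it does not check that label. All 8 hepatocyte markers were present, with a summed level of 39658 to 92953 TPM, against 56.7 to 211 for Kupffer cell, 49.1 to 177 for stellate cell, 29.1 to 68.2 for endothelial and 25.3 to 86.6 for cholangiocyte markers. Of 10 pericentral hepatocyte markers 0, 2 and 2 rose and 0, 0 and 2 fell in RD LFKO, LPKO and LFPKO against RD WT, and of 10 periportal markers 1, 2 and 2 rose and 0, 0 and 2 fell. In bulk liver, fewer cells of a type and less RNA per cell cannot be told apart. The 4 Y-linked genes looked at summed to 44.1 to 66.3 TPM in every library. TPM values keep no read depth, so the counting precision behind each level is unknown.

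Cyp2a enzymes are haem-containing monooxygenases of the endoplasmic reticulum that take electrons from P450 reductase and hydroxylate steroids, drugs and toxins. Cyp2a4 is a steroid hydroxylase known for higher expression in female than in male mouse liver. Cyp2a5, the counterpart of human CYP2A6, hydroxylates coumarin and nicotine and is known to respond to the nuclear receptor CAR, the oxidative stress factor NRF2 and HNF4α with its fasting coactivator PGC-1α. Cyp2a12 is a steroid hydroxylase of liver, and the substrates of Cyp2a22 are little known.

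The 4 genes form 2 pairs of near copies. On GRCm38 (GENCODE M21), all lie on chromosome 7 as protein-coding genes of 9 exons: Cyp2a4 at chr7:26307169-26315088 (+ strand), Cyp2a5 at chr7:26835305-26843548 (+), Cyp2a22 at chr7:26931631-26939384 (-) and Cyp2a12 at chr7:27029081-27037375 (+). The coding sequences of Cyp2a4 and Cyp2a5 differed at 23 of 1485 aligned bases (98.5% identity), and those of Cyp2a12 and Cyp2a22 at 45 of 1479 (97.0%), whereas identities across the pairs were 78.0% to 79.6%.

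The start regions below are shown because the members of each pair had very different RNA levels beside almost the same upstream sequence. Each runs from 250 bases before to 50 bases after the start in RefSeq (GRCm38.p6), 5′ to 3′ on the gene's strand, and capitals mark the bases that differ from the other member of the pair within the aligned stretch. The ends of a window that had no counterpart in the other were not compared and stand in lower case. Cyp2a4 lies at chr7:26306942-26307241 (+) and Cyp2a5 at chr7:26835089-26835388 (+).
Cyp2a4: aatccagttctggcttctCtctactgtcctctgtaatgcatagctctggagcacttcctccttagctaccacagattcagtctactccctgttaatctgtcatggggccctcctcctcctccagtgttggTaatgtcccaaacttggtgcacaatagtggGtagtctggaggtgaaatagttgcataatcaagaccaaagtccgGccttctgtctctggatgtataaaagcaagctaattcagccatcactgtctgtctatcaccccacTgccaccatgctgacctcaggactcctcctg
Cyp2a5: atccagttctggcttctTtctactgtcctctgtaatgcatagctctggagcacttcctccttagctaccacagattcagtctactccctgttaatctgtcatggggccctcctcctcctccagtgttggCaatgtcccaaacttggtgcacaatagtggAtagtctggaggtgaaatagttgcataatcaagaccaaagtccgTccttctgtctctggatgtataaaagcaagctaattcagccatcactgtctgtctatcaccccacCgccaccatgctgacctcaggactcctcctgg

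These windows differed at 5 of 299 aligned bases (98.3% identity). The second pair, Cyp2a12 at chr7:27028840-27029139 (+) and Cyp2a22 at chr7:26939337-26939636 (-), differed at 23 of 282 aligned bases (91.8%), and 7 further bases inside the stretch, in capitals, were present in Cyp2a12 alone.
Cyp2a12: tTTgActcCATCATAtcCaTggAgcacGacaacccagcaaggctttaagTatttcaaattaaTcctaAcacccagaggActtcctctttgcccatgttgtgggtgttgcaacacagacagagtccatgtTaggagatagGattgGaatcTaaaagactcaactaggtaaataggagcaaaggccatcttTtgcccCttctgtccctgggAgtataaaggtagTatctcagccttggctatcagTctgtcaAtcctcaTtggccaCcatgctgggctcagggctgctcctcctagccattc
Cyp2a22: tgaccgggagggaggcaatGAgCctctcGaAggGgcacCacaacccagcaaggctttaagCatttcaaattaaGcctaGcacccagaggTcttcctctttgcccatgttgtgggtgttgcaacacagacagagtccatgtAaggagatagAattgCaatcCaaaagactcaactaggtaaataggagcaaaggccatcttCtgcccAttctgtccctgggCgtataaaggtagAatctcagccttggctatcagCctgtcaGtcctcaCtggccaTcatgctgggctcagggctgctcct

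A search of both strands found AGGTCA, a nuclear receptor motif, once in the Cyp2a4 and once in the Cyp2a5 window, downstream of the start, and in neither window of the second pair; 16.3% of 32851 mouse promoters of the same length held it. None of the 4 windows held the D-box letters TTATGTAA or TTACGTAA (1.06% of promoters) or the forkhead letters in the form GTAAACA (3.65%). None held the antioxidant element TGACNNNGC (12.4%), the E-box CACGTG (7.15%) or the STAT letters TTCNNNGAA (8.30%). Other forms of the forkhead letters were not searched, and GTAAATA stands in the Cyp2a12 and Cyp2a22 windows. These are letter matches only and say nothing about factor binding or about more distant elements.

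Near-identical transcripts share reads, which kallisto divides between them. Of the stretches of 31 bases in the Cyp2a4 transcript, 41.1% occurred in no other gene of the annotation and 55.9% also occurred in Cyp2a5; for Cyp2a5 these shares were 41.5% and 48.2%. For Cyp2a12 and Cyp2a22, 58.4% and 60.6% were unique to the gene. The summed TPM of Cyp2a4 and Cyp2a5 is therefore given beside the separate values. It depends on the division of reads only through the transcript lengths, 1738 and 2013 bases.

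Cyp2a5 and Cyp2a12 were abundant in every library, whereas Cyp2a4 and Cyp2a22 were near 0 in some groups and well expressed in others. Since TPM is scaled by transcript length, levels can be set beside each other: Cyp2a5 ranged from 208 to 1988 TPM, Cyp2a12 from 305 to 544, Cyp2a4 from 0.0267 to 532 and Cyp2a22 from 0.0119 to 27.3. The 4 genes together made up 970 ± 79.8 TPM in RD WT liver and 634 ± 110 in HFD WT liver (mean ± SD, n = 3), of which Cyp2a5 contributed 58.4% ± 0.299 and 47.6% ± 6.53. Those totals were 1846 ± 377.1, 1877 ± 328 and 2204 ± 717 TPM in RD LFKO, LPKO and LFPKO liver.

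**Figure D1:**
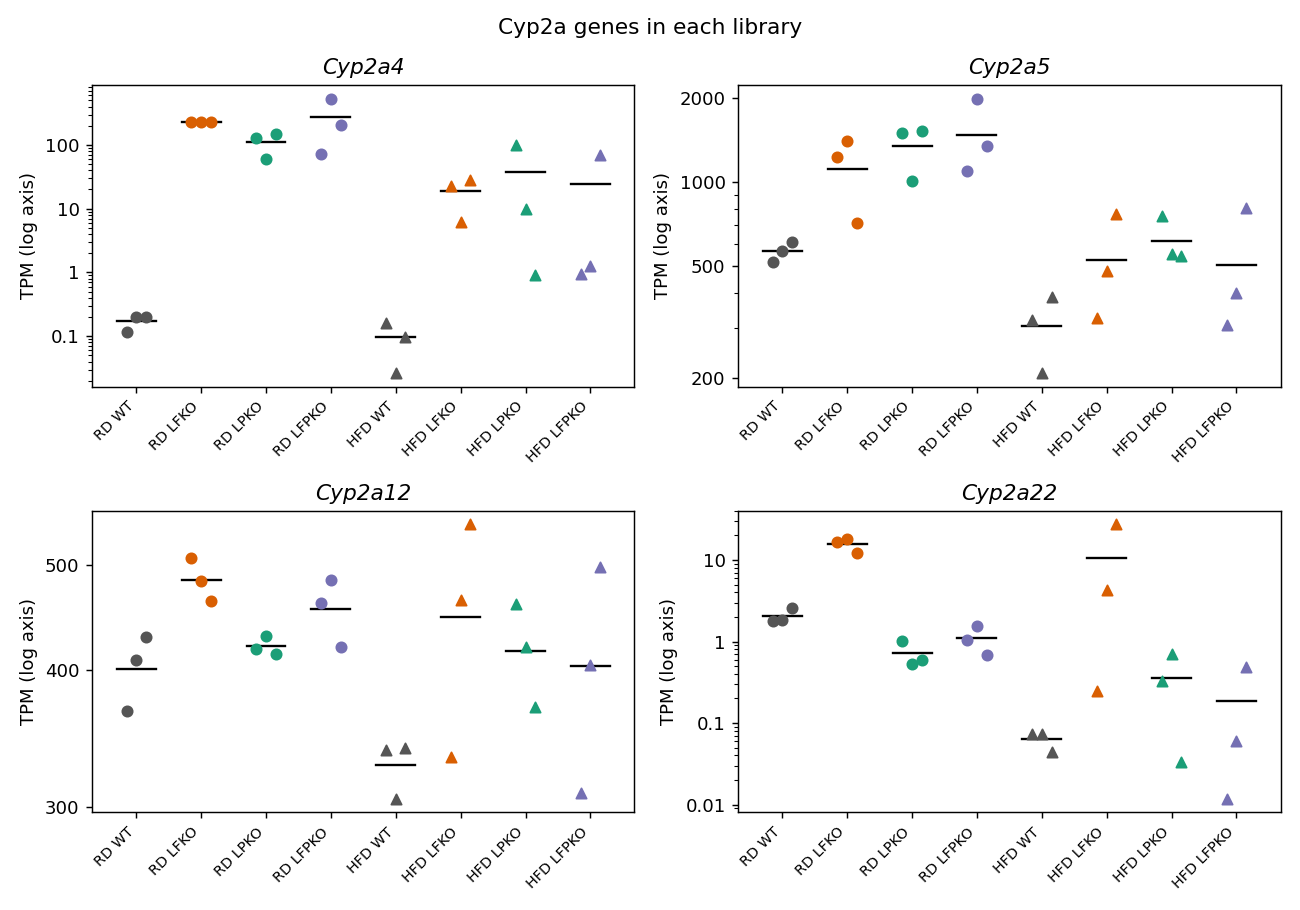
TPM of each Cyp2a gene (log axes, different ranges) in the 24 libraries; circles are the regular diet, triangles the high-fat diet, and short lines the means of 3 libraries. Cyp2a4 is at or below 0.202 TPM in all 6 WT libraries and at or above 0.928 TPM in all 18 knockout libraries, while Cyp2a12 stays between 305 and 544 TPM throughout.

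Cyp2a4, the steroid hydroxylase, was close to absent in WT liver and present in every knockout library. Since litter relations and strain background are not stated, the knocked-out genes and any other difference between WT and knockout mice near these genes cannot be told apart for this result. On the regular diet its level was 0.114, 0.198 and 0.202 TPM in the WT libraries, against 233, 232 and 227 TPM in LFKO. It was 130, 59.3 and 150 TPM in RD LPKO and 72.3, 532 and 204 TPM in RD LFPKO. No knockout library overlapped WT, the LFKO libraries lay close together, and LFPKO spread the most. The log2 differences from RD WT, on the log2(TPM + 1) scale that also holds for every fold change below, were 7.63 ± 1.17 (SE), 6.5 ± 1.17 and 7.42 ± 1.17; with a pseudocount of 0.1 in place of 1 they were 9.75, 8.61 and 9.53.

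On the high-fat diet the order of WT below knockout was the same but the knockout levels were lower and scattered. Cyp2a4 was 0.163, 0.0267 and 0.0977 TPM in HFD WT and 22.7, 6.22 and 27.7 TPM in HFD LFKO. It was 101, 9.76 and 0.928 TPM in HFD LPKO and 0.957, 1.25 and 70.4 TPM in HFD LFPKO, so that 1 library of each of these groups was far above the rest. The lowest knockout library still lay 4.59-fold above the highest WT library of either diet. By mean level the groups ran RD LFPKO (269 TPM), RD LFKO (231), RD LPKO (113), HFD LPKO (37.1), HFD LFPKO (24.2), HFD LFKO (18.9), RD WT (0.172) and HFD WT (0.0957); between neighbours in this order, only RD LFKO and RD LPKO, and HFD LFKO and RD WT, had ranges that did not overlap.

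Cyp2a5, the coumarin hydroxylase, was already abundant in WT liver and was higher in every RD knockout library than in any RD WT library. Its level was 516, 569 and 613 TPM in RD WT and 1231, 1400 and 716 TPM in RD LFKO. It was 1495, 1009 and 1525 TPM in RD LPKO and 1095, 1988 and 1351 TPM in RD LFPKO. The log2 differences from RD WT were 0.92 ± 0.35, 1.22 ± 0.35 and 1.34 ± 0.35, and those of the summed Cyp2a4 and Cyp2a5 level 1.21 ± 0.36, 1.34 ± 0.36 and 1.55 ± 0.36. On the high-fat diet Cyp2a5 was 321, 208 and 390 TPM in WT, 326, 483 and 771 TPM in LFKO, 757, 554 and 544 TPM in LPKO and 308, 401 and 805 TPM in LFPKO, and among these knockouts only LPKO did not overlap WT. Ordered by mean, the 8 groups fell from 1478 TPM in RD LFPKO to 306 TPM in HFD WT, and every pair of neighbours in that order had overlapping ranges.

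Cyp2a12 varied least of the 4. Its group means lay between 328 ± 19.4 TPM in HFD WT and 484 ± 22.0 TPM in RD LFKO (SD, n = 3), and the highest library was 1.78-fold above the lowest. On the regular diet its libraries were at 367, 408 and 429 TPM in WT and 507, 483 and 463 TPM in LFKO, without overlap, while LPKO (414 to 430 TPM) and LFPKO (420 to 484 TPM) overlapped WT. The log2 differences from RD WT were 0.27 ± 0.16 in LFKO, 0.07 ± 0.16 in LPKO and 0.18 ± 0.16 in LFPKO.

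Cyp2a22, the near copy of Cyp2a12, was high only in libraries labelled LFKO. It was 1.77, 1.83 and 2.59 TPM in RD WT and 16.5, 18 and 12.2 TPM in RD LFKO. In RD LPKO it was 1.02, 0.524 and 0.592 TPM and in RD LFPKO 1.06, 1.57 and 0.678 TPM, below every RD WT library. The log2 differences from RD WT were 2.43 ± 0.61, -0.84 ± 0.61 and -0.56 ± 0.61, so the direction differed between LFKO and the other knockouts. On the high-fat diet it was 0.0740, 0.0734 and 0.0446 TPM in WT, 0.250, 4.34 and 27.3 TPM in LFKO, 0.324, 0.704 and 0.0332 TPM in LPKO and 0.0119, 0.0598 and 0.485 TPM in LFPKO. Most of these values are far below 1 TPM, where the counting error is unknown and the pseudocount compresses fold changes.

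Across all 3 RD knockout contrasts, the number of members whose libraries did not overlap RD WT was 4 in LFKO, 3 in LPKO and 3 in LFPKO. Of all tested genes, 26.8%, 29.3% and 29.4% did not overlap there, and the limma fit called 1.67%, 5.85% and 7.45%. These contrasts chose the members, and nothing is read from the counts. Set against the single knockouts on the regular diet, LFPKO differed from LFKO by -0.21 ± 1.17 for Cyp2a4, 0.42 ± 0.35 for Cyp2a5, -0.09 ± 0.16 for Cyp2a12 and -2.98 ± 0.61 for Cyp2a22, and only Cyp2a22 did not overlap. From LPKO it differed by 0.92 ± 1.17, 0.12 ± 0.35, 0.11 ± 0.16 and 0.28 ± 0.61, with overlap for all 4. The share of all genes without overlap was not taken for LFPKO against the single knockouts, so nothing is read from these overlaps.

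**Figure D2:**
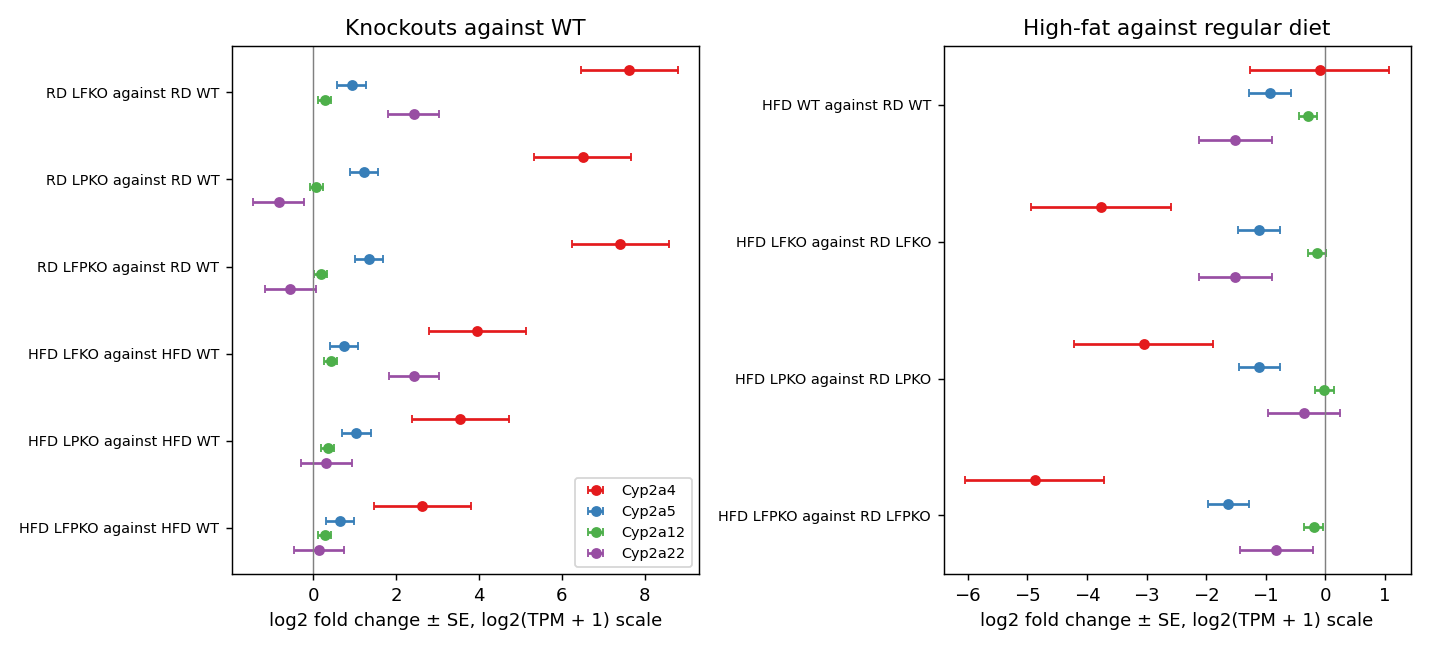
Log2 fold change ± SE of each Cyp2a gene from the limma fit of 24 libraries: knockouts against WT on each diet (left) and HFD against RD within each genotype (right). Cyp2a4 lies between 6.5 and 7.63 in the regular-diet knockouts and between 2.64 and 3.96 in the high-fat ones; Cyp2a12 stays within 0.42 of 0 in every contrast drawn.

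The high-fat knockouts asked whether the same differences were present in libraries other than those that chose the family, although their results were also known by then. In HFD LFKO against HFD WT, 2 of 4 members rose, where 13.5% of all genes tested were called. Cyp2a4 rose by 3.96 ± 1.17 (adjusted p = 0.032) and Cyp2a22 by 2.43 ± 0.61 (adjusted p = 0.0163), and for both all 3 LFKO libraries lay above all 3 WT libraries, for Cyp2a22 with the lowest LFKO library at 0.250 TPM. Cyp2a22 entered the test through its level in LFKO, so its LFKO tests are not independent of the filter. Cyp2a4 entered through its level in the knockouts, so its tests of any knockout against WT are not independent of the filter either. Cyp2a5 (0.74 ± 0.35, adjusted p = 0.15) and Cyp2a12 (0.42 ± 0.16, adjusted p = 0.0746) overlapped WT and did not pass. The call of Cyp2a4 was lost without HFD WT replicate 1, 2 or 3 or HFD LFKO replicate 2 or 3 (adjusted p = 0.056 to 0.141) and under median-of-ratios scaling (adjusted p = 0.0656), and that of Cyp2a22 without HFD WT replicate 2 (0.0804) or HFD LFKO replicate 2 (0.0596) or 3 (1.28, adjusted p = 0.0795). Of 6 stellate cell markers 3 rose and 0 fell in this comparison (0 and 0 after median-of-ratios scaling), with sums of 103 to 110 TPM in HFD LFKO and 49.1 to 70.2 TPM in HFD WT, and their part in the result was not tested. Without HFD LFKO replicate 1 all 4 members were called, Cyp2a5 at 1.04 (adjusted p = 0.0391) and Cyp2a12 at 0.62 (adjusted p = 0.00617). The share of all genes called without that library was not taken, so nothing is read from this count.

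HFD LFKO replicate 1 was the lowest of its group for 3 of the 4 members. Transcripts of the major urinary proteins (Mup), abundant secreted carriers of male mouse liver, made up 17.7%, 10.9% and 6.52% of listed TPM in HFD LFKO replicates 1 to 3, against 20.1%, 30.7% and 24.6% in HFD WT and 5.06% to 6.88% in RD LFKO. In HFD LFPKO, where replicate 3 was highest for all 4 members, the Mup share was 28.5%, 23.8% and 20.3%. A larger share of these transcripts lowers every other TPM in the library, and its part in the spread was not tested beyond the rescaled values given below.

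In HFD LPKO against HFD WT, 0 of 4 members were called by limma, against 4.73% of all genes, while 3 of 4 had an unadjusted p under 0.05 (19.8% of all genes) and did not overlap WT (20.7% of all genes). These were Cyp2a4 (3.55 ± 1.17, adjusted p = 0.0841), Cyp2a5 (1.04 ± 0.35, adjusted p = 0.0869) and Cyp2a12 (0.34 ± 0.16, adjusted p = 0.221). Without HFD LPKO replicate 3, the library with the lowest Cyp2a4, Cyp2a4 was called at 4.92 (adjusted p = 0.0132). Cyp2a22 differed by 0.32 ± 0.61 (adjusted p = 0.835). In HFD LFPKO against HFD WT, 0 of 4 were called, against 3.09% of all genes, and 1 had an unadjusted p under 0.05 (14.1% of all genes): Cyp2a4, at 2.64 ± 1.17 (adjusted p = 0.307), again without overlap. The share of all genes without overlap was taken neither for this contrast nor for HFD LFKO against HFD WT. Of 10 pericentral hepatocyte markers 4 rose and 1 fell in HFD LPKO and 3 rose and 0 fell in HFD LFPKO against HFD WT (2 and 1 in both after scaling), and their part in these results was not tested. The summed Cyp2a4 and Cyp2a5 level differed by 0.79 ± 0.36, 1.11 ± 0.36 and 0.68 ± 0.36 from HFD WT in LFKO, LPKO and LFPKO, with adjusted p = 0.142, 0.0832 and 0.424.

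Against HFD LFKO, HFD LFPKO liver had lower Cyp2a22, and 1 of 4 members was called where 10.6% of all genes were. Cyp2a22 fell by 2.30 ± 0.61 on the log2 scale (adjusted p = 0.0183), although the lowest LFKO library (0.250 TPM) lay below the highest LFPKO library (0.485 TPM). Cyp2a22 passed the filter only through its level in LFKO, so this test is not independent of the filter. The call was lost without HFD LFKO replicate 2 (adjusted p = 0.0552) or 3 (-1.15, adjusted p = 0.0968) and without HFD LFPKO replicate 1 (0.0727) or 2 (0.0544), and reached -3.40 (adjusted p = 1.72e-05) without HFD LFKO replicate 1. With only the compared groups in the fit, its adjusted p was 0.272, and that of its rise in HFD LFKO over HFD WT was 0.172. Cyp2a4 (-1.32 ± 1.17), Cyp2a5 (-0.10 ± 0.35) and Cyp2a12 (-0.15 ± 0.16) did not pass (adjusted p = 0.518, 0.895 and 0.602). Against HFD LPKO, HFD LFPKO gave 0 of 4 called, with 0 at an unadjusted p under 0.05, where 0.351% of all genes were called and 10.5% had such a p.

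The share of Cyp2a4 in the summed Cyp2a4 and Cyp2a5 level shows the difference between the near copies. It was at most 0.0508% in the 6 WT libraries although Cyp2a5 was at 208 TPM or more there. It reached 15.9%, 14.2% and 24.1% in RD LFKO, 7.98%, 5.55% and 8.98% in RD LPKO and 6.20%, 21.1% and 13.1% in RD LFPKO. On the high-fat diet it was 6.49%, 1.27% and 3.47% in LFKO, 11.7%, 1.73% and 0.170% in LPKO and 0.310%, 0.311% and 8.04% in LFPKO. Over the 24 libraries log2 levels of Cyp2a4 and Cyp2a5 had r = 0.837 (rho = 0.839), and over the 18 knockout libraries r = 0.846 (rho = 0.820); these are descriptions over libraries that share reads between the copies. In each LPKO and LFPKO group of either diet the library highest in Cyp2a4 was also the highest in Cyp2a5, which was not so in RD LFKO.

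**Figure D3:**
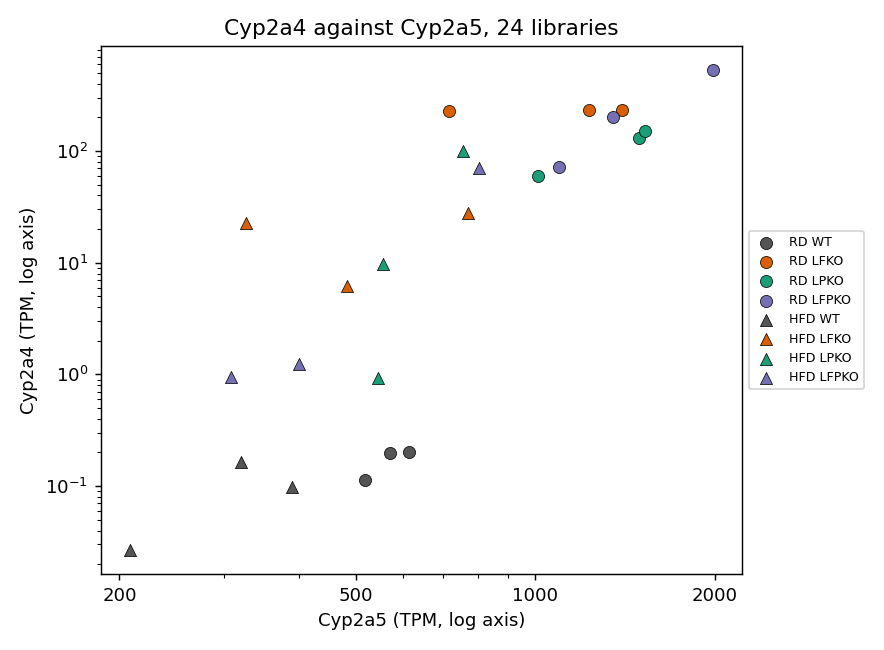
Cyp2a4 against Cyp2a5 in TPM (log axes), 1 point per library, coloured by genotype; circles are the regular and triangles the high-fat diet. The 6 WT libraries lie at or below 0.202 TPM of Cyp2a4 over a Cyp2a5 range of 208 to 613 TPM, a range within which 6 of the 9 high-fat knockout libraries also lie.

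Cyp2a5 was lower on the high-fat than on the regular diet in each genotype, but the calls in WT, LFKO and LPKO did not hold under every rescaling, as given below. These contrasts reuse the RD libraries whose levels chose the family, so a fall from the high RD knockout levels is partly fixed by that choice, and the p-values in knockouts are not independent of it. In WT liver 1 of 4 members fell, where 30.8% of all genes were called: Cyp2a5, by 0.93 ± 0.35 on the log2 scale (adjusted p = 0.0487), with all 3 HFD libraries below all 3 RD libraries. Cyp2a22 (-1.51 ± 0.61, adjusted p = 0.0636) and Cyp2a12 (-0.29 ± 0.16, adjusted p = 0.144) did not overlap either but did not pass, and Cyp2a4 was near 0 on both diets (-0.10 ± 1.17, adjusted p = 0.951). The median of all tested genes was itself -0.29 here, the same as the Cyp2a12 value. The share of all genes without overlap was not taken for any diet contrast, so nothing is read from overlap there. Of 6 stellate cell markers 4 fell (3 after scaling), with sums of 115 to 177 TPM in RD WT, and their part in the result was not tested. The call of Cyp2a5 was lost without any of RD WT replicates 1 to 3 or HFD WT replicates 1 and 2 (adjusted p = 0.0582 to 0.233).

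In LFKO liver 2 of 4 members fell, against 9.45% of all genes. Cyp2a4 fell by 3.77 ± 1.17 (adjusted p = 0.0475) with no overlap, and Cyp2a5 by 1.11 ± 0.35 (adjusted p = 0.0487), although HFD LFKO replicate 3 (771 TPM) was above RD LFKO replicate 3 (716 TPM). Their summed level fell by 1.35 ± 0.36 (adjusted p = 0.0257). Leaving out RD LFKO replicate 1 or 2 or HFD LFKO replicate 1 or 2 ended both calls (Cyp2a4 adjusted p = 0.1 to 0.151, Cyp2a5 0.105 to 0.237), and leaving out RD LFKO replicate 3 ended that of Cyp2a4 (adjusted p = 0.121). Cyp2a22 (-1.51 ± 0.61, adjusted p = 0.127) passed only without HFD LFKO replicate 3 (-2.66, adjusted p = 0.000447). It entered this test through its level in LFKO, so neither value is independent of the filter.

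In LPKO liver 1 of 4 members fell, against 18.1% of all genes: Cyp2a5, by 1.11 ± 0.35 (adjusted p = 0.0341), without overlap. Cyp2a4 differed by -3.05 ± 1.17 (adjusted p = 0.0728) and passed without HFD LPKO replicate 1 (-4.54, adjusted p = 0.0138), its highest library. The call of Cyp2a5 was lost without RD LPKO replicate 1 or 3 or HFD LPKO replicate 2 or 3 (adjusted p = 0.0764 to 0.121). Cyp2a12 (-0.02 ± 0.16) and Cyp2a22 (-0.36 ± 0.61) did not pass.

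In LFPKO liver 2 of 4 members fell, against 26.3% of all genes. Cyp2a4 fell by 4.88 ± 1.17 (adjusted p = 0.0052) and Cyp2a5 by 1.63 ± 0.35 (adjusted p = 0.00239), with all 3 HFD libraries below all 3 RD libraries for both, and their sum fell by 1.80 ± 0.36 (adjusted p = 0.0017). Both stayed past the threshold without any of the 6 libraries (Cyp2a4 adjusted p = 0.000341 to 0.0448, Cyp2a5 0.000668 to 0.0238). With only the 2 groups in the fit Cyp2a5 passed (adjusted p = 0.0324) and Cyp2a4 did not (adjusted p = 0.0535). Cyp2a22 (-0.83 ± 0.61) had no overlap and did not pass (adjusted p = 0.335), nor did Cyp2a12 (-0.20 ± 0.16, adjusted p = 0.368).

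The scale of the data matters for these diet contrasts. The median of all tested genes was itself shifted by -0.29, -0.11, -0.22 and -0.23 in WT, LFKO, LPKO and LFPKO (and by 0.21 and 0.11 in HFD LFKO and HFD LPKO against HFD WT), and called genes were mostly lower on the high-fat diet, 3139 lower and 111 higher in WT. After median-of-ratios scaling the WT split was 368 lower and 468 higher, and in LFKO, LPKO and LFPKO it was 672 lower and 417 higher, 390 and 291, and 884 and 503, from 880 and 117, 1828 and 82, and 2631 and 142 before. On that scale the diet difference of Cyp2a5 was -0.56 in WT (adjusted p = 0.291), -0.98 in LFKO (0.0484), -0.86 in LPKO (0.103) and -1.37 in LFPKO (0.00655); without Mup and mitochondrial transcripts the LFKO value was -0.91 (adjusted p = 0.0602). Cyp2a4 in LFKO was no longer called on either scale, at -3.63 (adjusted p = 0.0563) and -3.6 (adjusted p = 0.067). Cyp2a4 in LFPKO was at -4.68 (adjusted p = 0.0132), whereas Cyp2a12 turned to 0.07, -0.01, 0.23 and 0.06 and has no steady direction between diets. Without Mup and mitochondrial transcripts the split in RD LFKO against RD WT moved from 113 higher and 63 lower to 122 and 175, and in HFD LFPKO against HFD LPKO from 7 and 30 to 35 and 68. With median-of-ratios scaling, in HFD LFKO against HFD WT the split moved from 1343 higher and 77 lower to 233 and 198, in HFD LPKO from 380 and 119 to 373 and 346, in HFD LFPKO from 171 and 155 to 211 and 362, and in HFD LFPKO against HFD LFKO from 195 and 922 to 468 and 638; Cyp2a22 was still called in HFD LFKO against HFD WT (2.35, adjusted p = 0.0302) and in HFD LFPKO against HFD LFKO (-2.22, adjusted p = 0.0193).

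A test of whether the knockout difference depended on diet called 0 of 4 members in LFKO, LPKO and LFPKO, where 0.00948%, 0.171% and 0.0284% of all genes were called; these contrasts share the RD libraries that chose the family. The Cyp2a4 terms were -3.67 ± 1.65 (adjusted p = 0.375), -2.95 ± 1.65 (0.697) and -4.78 ± 1.65 (0.447), and those for LFKO and LFPKO were the only member terms with an unadjusted p under 0.05, as had 12.2%, 8.08% and 7.54% of all genes in LFKO, LPKO and LFPKO. For Cyp2a5 the terms were -0.19 ± 0.49, -0.18 ± 0.49 and -0.70 ± 0.49, so a difference in diet response between genotypes was not resolved at this spread.

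Called targets of NRF2 and of CAR and PXR, factors to which Cyp2a5 is known to respond, were lower on the high-fat diet. The groups were listed with earlier results of these data known. Of 16 tested NRF2 targets, enzymes of glutathione and quinone metabolism, 13 fell and 0 rose in WT, 11 and 0 in LFKO, 13 and 0 in LPKO and 15 and 0 in LFPKO, with median log2 changes of -1.13, -1.0, -1.01 and -1.16; after median-of-ratios scaling 9, 11, 10 and 13 fell and 0 rose. Of all genes 30.8%, 9.45%, 18.1% and 26.3% were called there before scaling, and the medians of all genes are those given above. Gstm3, a glutathione transferase, fell by 2.68 ± 0.31 in WT (adjusted p = 1.3e-05) and fell by 3.82 ± 0.31 in LFPKO (adjusted p = 3.42e-07). Gsta1, of the same class of enzymes, fell by 3.15 ± 0.37 (adjusted p = 1.39e-05) and fell by 3.93 ± 0.37 (adjusted p = 1.45e-06).

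Of 19 tested CAR and PXR targets, 13, 9, 9 and 10 fell and 0 rose in WT, LFKO, LPKO and LFPKO, with medians of -1.36, -0.81, -0.78 and -1.13; after scaling 8, 9, 8 and 10 fell and 1, 1, 1 and 0 rose. The other targets did not pass in that contrast. Cyp3a11, the main drug-metabolising P450 of the 3a family, fell by 4.93 ± 0.52 in LFKO (adjusted p = 9.68e-06) and fell by 5.74 ± 0.52 in LFPKO (adjusted p = 1.25e-06). Cyp2c55, a P450 of the 2c family, fell by 2.01 ± 0.21 in WT (adjusted p = 4.16e-06). Cyp2b10, the usual CAR reporter gene, which lies on chromosome 7 upstream of the Cyp2a genes, fell by 2.29 ± 0.44 in LFKO, 2.39 ± 0.44 in LPKO and 2.41 ± 0.44 in LFPKO (adjusted p = 0.00375, 0.00212 and 0.00086) and differed by -1.17 ± 0.44 in WT (adjusted p = 0.0505). The 2 lists share Gstm1, Gstm3 and Gsta1.

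In the knockout contrasts most of these targets were not called. On the regular diet 1, 2 and 3 of 16 NRF2 targets rose in LFKO, LPKO and LFPKO, and 2, 2 and 4 of 19 CAR and PXR targets rose while 1, 1 and 2 fell, where 1.67%, 5.85% and 7.45% of all genes were called. Gstm3 rose in each, by 1.68 ± 0.31 (adjusted p = 0.00476), 1.85 ± 0.31 (0.000691) and 2.14 ± 0.31 (0.000134), and Cyp2c55 by 1.37 ± 0.21 (0.000767), 1.01 ± 0.21 (0.00432) and 1.52 ± 0.21 (7.68e-05). On the high-fat diet 2, 2 and 0 CAR and PXR targets rose and 0, 0 and 2 fell in LFKO, LPKO and LFPKO (1, 1 and 0, and 0, 0 and 3, after scaling), and 5 NRF2 targets rose in LFKO and 0 in LPKO and LFPKO (3, 0 and 0 after scaling), among them the NADP-linked enzymes Me1 (1.71 ± 0.38, adjusted p = 0.00973) and Nqo1 (1.07 ± 0.25, adjusted p = 0.0122).

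The transcripts of factors tied to Cyp2a control moved little in the knockout contrasts against WT, whereas some were called between diets. Of 23 such genes, all tested, 0 were called in the 3 RD knockout contrasts and 1, 1 and 0 rose in HFD LFKO, LPKO and LFPKO against WT; the gene called in both was Ahr, the dioxin receptor (0.76 ± 0.23, adjusted p = 0.0346, and 0.83 ± 0.23, adjusted p = 0.0366), and neither call held after scaling. Between diets 6, 1, 3 and 4 fell and 0, 0, 0 and 1 rose in WT, LFKO, LPKO and LFPKO, where 30.8%, 9.45%, 18.1% and 26.3% of all genes were called. After scaling 0, 1, 1 and 2 fell and 1, 2, 1 and 2 rose. Nfe2l2, which encodes NRF2, fell in LPKO (-0.80 ± 0.19, adjusted p = 0.00961) and LFPKO (-0.97 ± 0.19, adjusted p = 0.00145), and both calls held after scaling (-0.56 and -0.72, adjusted p = 0.0102 and 0.000988). Nr1i2, which encodes PXR, fell in LFPKO by 1.17 ± 0.16 (adjusted p = 9.32e-05, and 0.000448 after scaling), and its fall in WT (-0.54 ± 0.16, adjusted p = 0.0172) did not hold after scaling (adjusted p = 0.461).

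Female-biased genes, listed apart from the Cyp2a members, were called mostly in LFKO. Of 10 tested female-biased genes, 5 rose and 0 fell in RD LFKO, 0 rose and 2 fell in RD LPKO, and 1 rose and 1 fell in RD LFPKO, with medians of 2.10, -0.47 and -0.58. On the high-fat diet 6 and 0, 1 and 0, and 1 and 1 rose and fell (4 and 0, 1 and 1, and 1 and 1 after scaling). Cyp2c69 and Cyp2c40, P450 genes of the 2c family, rose by 3.62 ± 0.36 (adjusted p = 6.41e-06) and 4.13 ± 0.61 (adjusted p = 0.000666) in RD LFKO. The steroid hydroxylase-lyase Cyp17a1 rose by 2.0 ± 0.53 in RD LFPKO (adjusted p = 0.0239) and was also called higher in HFD LFKO, LPKO and LFPKO. The falls in RD LPKO were those of Cyp4a10 (-3.95, adjusted p = 0.000115) and Abcd2 (-1.31, adjusted p = 0.0445). In RD LFPKO the fall was that of Cyp4a10 (-4.31, adjusted p = 3.42e-05). Cyp4a10, Abcd2 and Acot3 were among the genes that rose in HFD LFKO. The part of PPARα loss in these falls was not tested. Of 23 tested male-biased genes, 1 rose and 10 fell in RD LFKO and 0 rose and 11 fell in HFD LFKO, against 3 and 2 in RD LPKO, 2 and 3 in RD LFPKO, 0 and 4 in HFD LPKO and 0 and 0 in HFD LFPKO, while 11 rose and 0 fell in HFD LFPKO against HFD LFKO. Without Mup and mitochondrial transcripts the counts in RD LFKO, HFD LFKO and HFD LFPKO against HFD LFKO were 1 and 5, 0 and 6, and 9 and 0. Several of these are Mup genes, whose near-identical copies also share reads.

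Further groups were counted beside all genes, of which 1.67%, 5.85% and 7.45% were called in RD LFKO, LPKO and LFPKO against RD WT. Between diets 30.8%, 9.45%, 18.1% and 26.3% of all genes were called in WT, LFKO, LPKO and LFPKO before scaling. Of 14 tested clock and PAR bZIP genes, 0 were called in RD LFKO, 1 rose and 1 fell in RD LPKO, and 1 rose and 2 fell in RD LFPKO. Dbp, which binds the D-box, differed by 0.60 ± 0.26, 0.69 ± 0.26 and 0.65 ± 0.26 in RD LFKO, LPKO and LFPKO (adjusted p = 0.268, 0.129 and 0.14). Between diets 0, 1, 0 and 0 rose and 2, 1, 2 and 1 fell in WT, LFKO, LPKO and LFPKO; after scaling 0, 1, 3 and 0 rose and 0, 1, 1 and 0 fell, so the clock genes had no steady direction in LPKO. Of 16 genes for P450 electron supply and haem synthesis, 0 were called in RD LFKO and 1 fell in RD LPKO and in RD LFPKO, in both Cpox, a haem synthesis enzyme (-1.28 ± 0.17, adjusted p = 9.55e-05, and -1.50 ± 0.17, adjusted p = 1.24e-05). Between diets 5, 4, 4 and 7 of the 16 fell and 0, 0, 1 and 1 rose (2, 3, 0 and 2 fell and 1, 1, 2 and 2 rose after scaling), led by the cytochrome b5 gene Cyb5b and the haem-binding Pgrmc1, at -1.27 ± 0.17 and -0.94 ± 0.14 in WT (adjusted p = 8.85e-05 and 0.000292).

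Other P450 genes of the same chromosome 7 cluster did not share a common pattern. Cyp2b9, a female-biased gene upstream of Cyp2a4, had a mean of 83.9 TPM in RD LFKO and 70.6 TPM in HFD LFKO, against at most 1.90 TPM in the means of the other 6 groups, and rose by 4.82 ± 0.68 (adjusted p = 0.000482) and 4.62 ± 0.68 (adjusted p = 0.000483). Cyp2g1, which lies next to Cyp2a5 and is better known from nasal tissue, had RD means of 4.08, 13.3, 11.6 and 16.9 TPM and HFD means of 2.47, 7.53, 5.08 and 5.07 TPM in WT, LFKO, LPKO and LFPKO. It was called in RD LFPKO against WT (1.87 ± 0.48, adjusted p = 0.0192) and fell with the high-fat diet in LFPKO (-1.85 ± 0.48, adjusted p = 0.00858). Cyp2f2, a periportal P450 beyond Cyp2a12, was between 435 and 884 TPM in the group means. Of 33 tested genes within 1 Mb of a member, 1, 0 and 1 rose and 1, 0 and 1 fell in the RD knockouts. In HFD LFKO, LPKO and LFPKO against WT 2, 1 and 0 rose and 1, 0 and 0 fell.

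**Figure D4:**
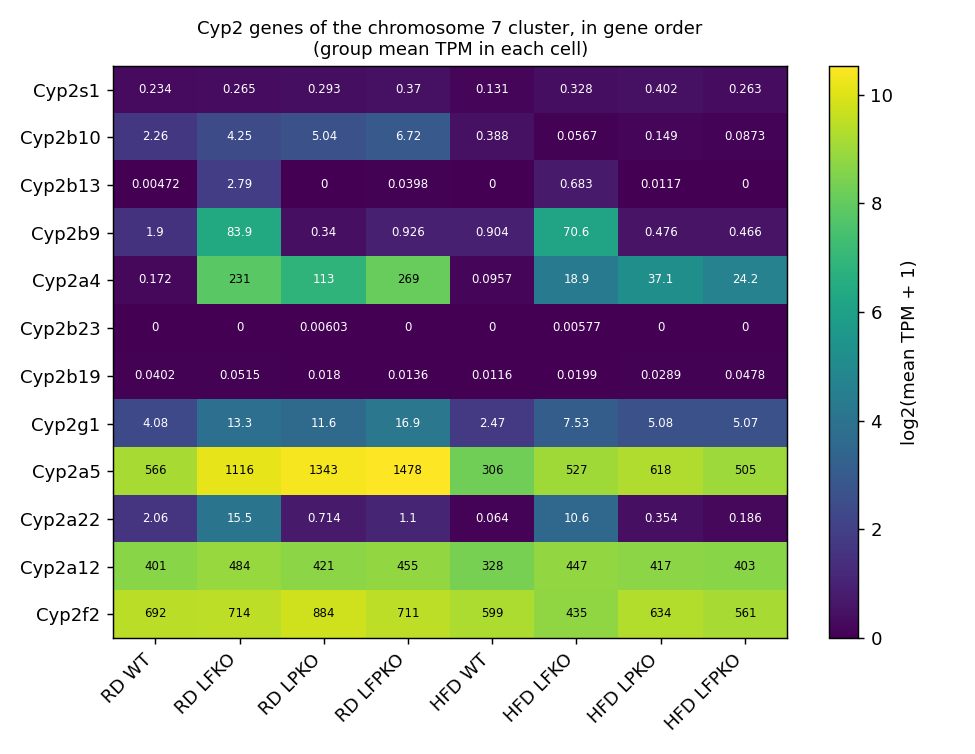
Mean TPM of 3 libraries (number in each cell, colour on a log2(TPM + 1) scale) for the Cyp2 genes of the chromosome 7 cluster, rows in gene order and columns by group. Cyp2b9 is bright only in the LFKO columns, Cyp2a4 in all knockout columns, and Cyp2a5, Cyp2a12 and Cyp2f2 in every column.

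The genes whose log2 levels over the 24 libraries were most like each member were ranked by Pearson r among 6724 genes with a mean of at least 5 TPM; the libraries share their groups and the total they are scaled to, so the values are descriptions. Cyp2a4 was closest to Spp2, a secreted liver phosphoprotein (r = 0.913, rho = 0.895), then to Ndufab1, Sub1, Mbl2 and Apool (r = 0.838 to 0.851), and lowest against Mup12 (r = -0.844). Cyp2a5 was closest to the tight junction gene Ocln (r = 0.929), the kinase gene Fggy (0.928), Ndufab1, a mitochondrial acyl carrier protein (0.926), and the peptidase gene Dpp4 (0.923), and lowest against Adh6-ps1 (-0.919). Ndufab1 was thus among the 5 closest genes of both near copies.

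Cyp2a12 was closest to Shmt1, a serine and glycine enzyme (r = 0.902), then to Slc20a2 (0.889), Pipox, a lysine-degrading oxidase (0.885), and Smlr1 and Rnf14 (both 0.883). Its 3 lowest values were against Mup8, Mup1 and Mup14 (r = -0.769 to -0.750). Cyp2a22 was closest to Cyp2b9 (r = 0.910, rho = 0.741), the fatty acid transporter Cd36 (0.899), the mitochondrial carrier Slc25a10 (0.894) and albumin, Alb (0.877). It was lowest against Serpina1e and Mup7 (both r = -0.952) and the complement gene C6 (-0.923). By Spearman's rho Cyp2b9 had only rank 1316 for Cyp2a22 and Cd36 had rank 1 (rho = 0.95), so the first place of Cyp2b9 holds for r alone. Within the family Cyp2a22 had r = 0.689 with its near copy Cyp2a12, 0.406 with Cyp2a4 and 0.393 with Cyp2a5. On the 12 RD libraries alone its r with Cyp2a5 was -0.0728 (rho = -0.273), and on the 12 HFD libraries 0.482 (rho = 0.615).

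**Figure D5:**
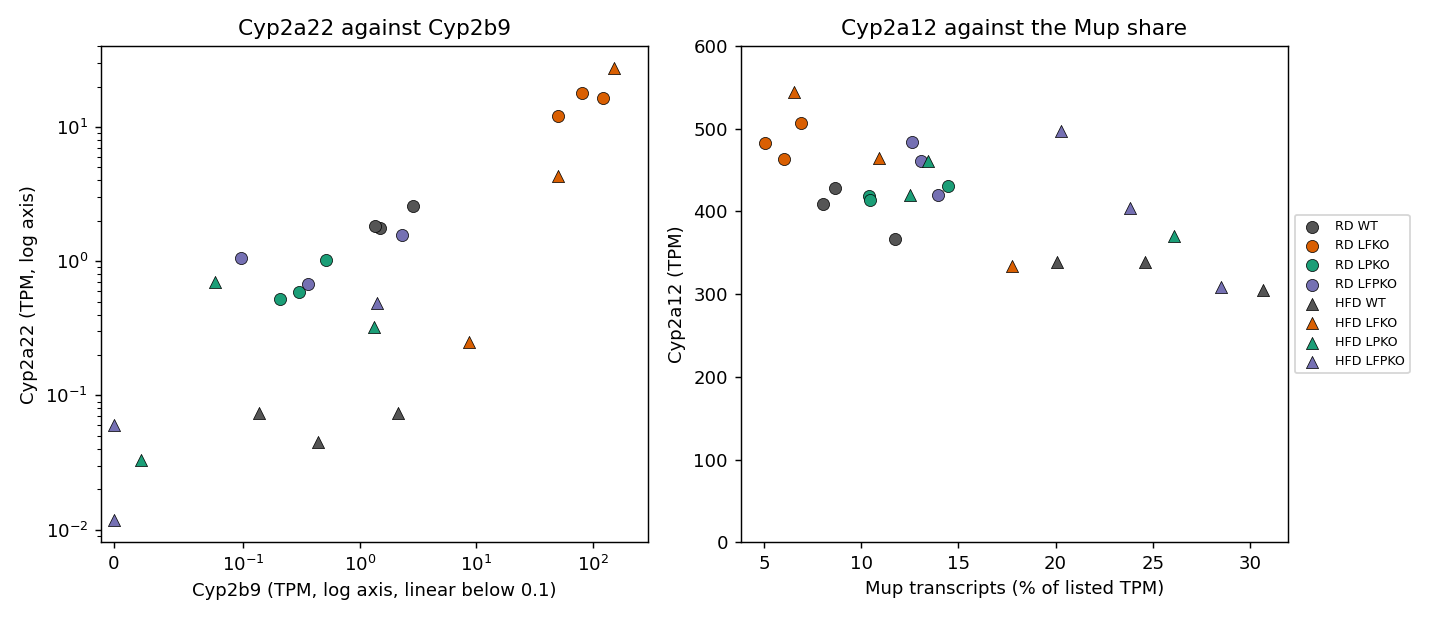
Left, Cyp2a22 against Cyp2b9 in TPM (log axes; the Cyp2b9 axis is linear below 0.1); right, Cyp2a12 in TPM against the percent of listed TPM from Mup transcripts; 1 point per library, colours and shapes by group. The 5 libraries with Cyp2a22 above 4 TPM are all labelled LFKO and have Cyp2b9 of at least 50.1 TPM, and the 4 libraries with Mup shares above 24% have Cyp2a12 between 305 and 371 TPM.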

How the data were processed

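Liver mRNA libraries were made with a stranded poly(A) kit, per the labels' protocols, and the authors deposited 1 table of TPM per gene, estimated with kallisto on GRCm38/mm10 per the submitters' processing notes (no kallisto version or annotation is named there). The table holds 34945 named genes and 1 row without a name (0.0104% to 0.025% of TPM), left out of tests. Listed TPM summed to 956785 to 993524 per library, and replicates of a group had r of 0.97 to 0.991.

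From these values log2(TPM + 1) was fitted with limma 3.58.1 (R 4.3.3; trended variance, 8 group means, 24 libraries, 16 residual degrees of freedom) over the 10551 genes with a mean of at least 1 TPM. Adjusted p-values are Benjamini-Hochberg values over all those genes, and a call means an adjusted p under 0.05. The script was tested on simulated data. An exact permutation test of 3 libraries against 3 cannot go below p = 0.1, so none was used. Coding sequences, transcripts and positions came from GENCODE M21 and start regions from RefSeq (Biopython 1.88).

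The members and all gene lists were chosen with earlier results of these data known, high-fat results included, so no p-value here is independent evidence. Genes were named as members, as the 5 highest and 3 lowest in likeness to a member, as up to 4 leading genes of a list, or as neighbours; Dbp and Cyp2f2 were named for their role or place. The alternatives were another pseudocount (0.1), other filters, rescaling by median-of-ratios size factors or without Mup and mitochondrial transcripts, a fit of the compared groups only, the replicate number as a block, and each library left out in turn. List counts under rescaling were added after seeing the data.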

Additional observations from a re-analysis of the deposited data

How the results depend on the processing

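In LFPKO liver neither Cyp2a5 nor Cyp2a4 lost its call between diets under any alternative, except Cyp2a4 with the compared groups only. Each alternative drew on the RD libraries whose levels chose the family, so that fall stays partly fixed by the choice. Most other calls lay close to the threshold. The number of members called moved as follows. The numbers of all genes called were taken only for the 2 rescalings, so the other counts are descriptions. With a pseudocount of 0.1 it was 1 in HFD LPKO against HFD WT, and 2 and 0 between diets in WT and LFKO. With no filter it was 1 in HFD LFKO against HFD WT, 0 in HFD LFPKO against HFD LFKO, and 0, 0 and 0 between diets in WT, LFKO and LPKO. With a minimum mean of 5 TPM, where Cyp2a22 is not tested, it was 1 and 0 in those first comparisons. With median-of-ratios scaling it was 1 in HFD LFKO against HFD WT and 0, 1 and 0 between diets in WT, LFKO and LPKO, and without Mup and mitochondrial transcripts 0, 0 and 0 there. With the compared groups only it was 1 in HFD LFKO against HFD WT, 0 in HFD LFPKO against HFD LFKO, 2, 1 and 1 between diets in WT, LFKO and LFPKO, and 1 for the LFKO by diet term, which is built from the regular-diet contrast that chose the family and supports nothing. Beyond what these constructions change (the genes or libraries in the fit), the cause was not tested.

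Leaving out each library gave 0 to 4 members called in HFD LFKO against HFD WT, 0 to 1 in HFD LPKO against HFD WT, 0 to 1 in HFD LFPKO against HFD LFKO, 0 to 1, 0 to 3, 0 to 2 and 2 to 2 between diets in WT, LFKO, LPKO and LFPKO, and 0 in the other comparisons. The share of all genes called in each of these fits was not taken, so nothing is read from the counts.

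Of the values that changed sign, 42 in all, none was past the threshold before or after. With median-of-ratios scaling these were, in HFD LFPKO against HFD LFKO, Cyp2a5 at 0.06, Cyp2a12 at 0.01 and the sum of Cyp2a4 and Cyp2a5 at 0.05; Cyp2a12 between diets at 0.07, 0.23 and 0.06 in WT, LPKO and LFPKO; and the diet terms of Cyp2a12 at -0.08 (LFKO) and -0.01 (LFPKO) and of Cyp2a22 at -0.02 (LFKO). Without Mup and mitochondrial transcripts they were Cyp2a5 at 0.13, Cyp2a12 at 0.09 and the sum at 0.12 in HFD LFPKO against HFD LFKO, Cyp2a12 at 0.05 in HFD LFPKO against HFD LPKO and at 0.07, 0.06, 0.19 and 0.12 between diets in WT, LFKO, LPKO and LFPKO, and its LFKO by diet term at -0.01.

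Leaving out 1 library, Cyp2a12 ranged from -0.34 to 0.03 in HFD LFPKO against HFD LFKO, from -0.23 to 0.11 against HFD LPKO, from -0.30 to 0.05 and -0.09 to 0.06 between diets in LFKO and LPKO, and from -0.01 to 0.35 and -0.07 to 0.27 in the LFKO and LFPKO diet terms. Cyp2a22 ranged from -0.04 to 0.24 in HFD LFPKO against HFD WT and from -1.15 to 1.10 in the LFKO diet term, and Cyp2a4 from -2.61 to 0.58 in HFD LFPKO against HFD LPKO. In HFD LFPKO against HFD LFKO, Cyp2a5 ranged from -0.50 to 0.22 and the sum from -0.55 to 0.21; the Cyp2a5 diet terms ranged from -0.50 to 0.11 (LFKO) and -0.44 to 0.01 (LPKO).

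With a replicate block, 0 members were called between diets in WT (Cyp2a5 at -0.93, adjusted p = 0.0517) and 0 in LFKO (Cyp2a4 at -3.77 and Cyp2a5 at -1.11, adjusted p = 0.0599 and 0.0542), and no other count of members called moved. The numbers do not pair the libraries: over 84 same-numbered pairs the correlation of deviations from group means ran from -0.23 to 0.387, 12 were over 0.1, and 9 of 24 libraries were closest to their own number. The share of Cyp2a4 stretches found in no other gene was 28.6% at 21 bases and 62.1% at 51 bases. Of the 5 genes most like Cyp2a4, Cyp2a5 and Cyp2a22, 3, 3 and 2 were kept by Spearman's rho, and Cyp2b9 was not among those kept for Cyp2a22. Ranked by r over the 8 group means the lists were less steady. For Cyp2a4, Spp2 kept rank 1 but Ndufab1 had rank 35. For Cyp2a5, Ndufab1 had rank 2, Ocln 14 and Fggy 67. Shmt1 had rank 122 for Cyp2a12, and for Cyp2a22 Cyp2b9 had rank 16, Cd36 27 and Alb 8. TPM keeps no depth, so the counting error of Cyp2a22 and of Cyp2a4 in WT is unknown.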
